A study of Mus musculus with 9 samples.

Results

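The arrays examined here are the 3 GFP controls of a 9-array Affymetrix study of granulosa cells of the mouse ovary, which line the follicle around the oocyte, kept in culture. They were chosen by their titles, and every probe set on them was read, apart from the 64 Affymetrix controls. The cells came by needle puncture from mice aged 20 to 26 days that had received equine chorionic gonadotrophin 48 h earlier, a hormone that acts through the FSH receptor and drives follicle growth. They attached overnight in medium with 1% serum and were then kept for 24 h without serum with an adenovirus carrying enhanced GFP. Preliminary experiments of the study had reached most cells at a multiplicity of infection of about 50, and the dose used for these arrays is not stated. For these 3 arrays no genotype is stated, and the labels say only that the mice varied in genotype. The labels call the arrays biological replicates and name no separate animals, pools or cultures, so the spread described below is that between these samples. The arrays are called GFP 1, GFP 2 and GFP 3, by the replicate numbers of the labels.

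Granulosa cells of a growing follicle make inhibin, activin subunits and follistatin, couple to one another through connexin 43, and turn cholesterol into steroid hormones under FSH. After the LH surge they stop dividing, and those next to the oocyte expand around it while others become luteal cells. Gonadotrophin primes them for that change, and cells taken before the surge can be followed in culture.

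All 6 markers used to check the label gave strong signal on each array. Inha, the alpha subunit of inhibin, read 13.28, 13.30 and 13.49 on GFP 1, 2 and 3 (log2 values, as throughout). Inhba, the subunit shared by activin A and inhibin A, read 13.31, 13.57 and 13.44. Gja1, the gap junction protein connexin 43, read 13.47, 13.35 and 13.51. Each of these triplets spans at most 0.26, and the 3 means lie at the 99.7th percentile of all 45037 probe sets. Fst, which encodes the activin-binding protein follistatin, read 12.39, 12.34 and 12.33, at the 98.8th percentile. Foxl2, the transcription factor that maintains granulosa identity, read 10.54, 10.44 and 10.70, at the 94.4th percentile. Cyp11a1, whose product makes pregnenolone from cholesterol, read 13.31, 12.03 and 13.01. It was the marker with the widest spread: its mean of 12.78 ± 0.67 (SD, n = 3) rests on a GFP 2 value 1.28 below that of GFP 1.

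These values are for the probe set of each gene with the highest mean, the choice used for every gene below unless stated. Other probe sets of the same markers gave other levels: those of Inhba, Foxl2 and Cyp11a1 averaged as low as 5.34, 5.06 and 5.98, and those of Gja1 6.33. Signal depends on the probes as well as on the transcript, so ranks order signals on this array type and not amounts of RNA. Of 9010 genes with several probe sets, 3321 had probe sets at least 3 apart.

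The 250 bases before the start used here for Inha are shown because this gene gave strong signal on each array. They include inhibin alpha coding sequence, so this start lies inside the gene and the stretch is not its usual promoter. Capitals mark AGGTCA, a hexamer that nuclear receptors recognise, searched on both strands. The sequence is from RefSeq (GRCm38.p6, chr1:75507359-75507608, plus strand).
Inha: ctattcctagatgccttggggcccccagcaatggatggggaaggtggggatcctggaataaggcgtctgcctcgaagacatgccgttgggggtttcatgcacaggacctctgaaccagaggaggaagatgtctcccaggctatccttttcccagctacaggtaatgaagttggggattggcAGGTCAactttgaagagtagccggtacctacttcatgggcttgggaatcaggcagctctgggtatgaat
AGGTCA was present in 16.3% of all 32851 promoter windows of 300 bases in the table, in 4 of 26 windows (15.4%) of the inhibin, activin and BMP list, to which Inha belongs, and in 4 of 14 of the steroidogenesis list. Over windows of genes above background the share was 12.9%. A match is a description of these letters and not a binding site. The match marked in Inha lies inside the gene.

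Signal above background was taken from 44 probe sets of olfactory receptors, which serve smell and are not known for a role in this tissue. The 95th percentile of their means was 5.45, and 12332 of 18193 named genes (67.8%) had a mean above it. This share is raised by reading each gene from its brightest probe set. Of all probe sets, 51.5% had a mean above the limit. On all 3 arrays singly, 11673 genes lay above it. The limit is approximate. Among 5 measured Y-linked genes, which female cells lack, 4 lay between 3.97 and 4.68, but Sry, the testis-determining gene, read 6.40, 6.39 and 6.43 on one probe set and averaged 4.18 on the other. Xist, the RNA of the inactive X chromosome, read 10.94, 10.78 and 10.91.

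Among the 25 highest signals were a secreted chaperone, a steroid enzyme and many ribosomal proteins. Clu, the secreted chaperone clusterin, averaged 14.43 ± 0.23 (SD, n = 3, rank 2 of 18193), and its 4 probe sets all had means of at least 14.07. Hsd3b1, which makes progesterone from pregnenolone, read 14.31, 13.90 and 14.28 (rank 4). Eef1a1, which delivers aminoacyl-tRNA to the ribosome, averaged 14.30 ± 0.15 (rank 3). Genes of cytosolic ribosomal proteins held 8 of the first 25 places and 26 of the first 100. Akr1cl, an aldo-keto reductase (13.91 ± 0.19), and Ephx2, soluble epoxide hydrolase (13.85 ± 0.25), were also among the first 25. The 25 genes had ranges between arrays of at most 0.74. Several places are open to doubt, however, since 13 of the 25 had a probe set at least 5 below the one that gave the rank. Sf1, a splicing factor with the symbol also used for a steroidogenic receptor, held rank 1 at 15.20, while its other 4 probe sets averaged between 5.33 and 12.84. Sema3f, an axon guidance factor, averaged 14.02 on one probe set and 5.92 and 4.89 on the others. E2f5, a cell cycle transcription factor, averaged 13.88 on one and 7.46 and 6.60 on the others.

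Hormone and growth factor genes of the inhibin, activin and BMP system were broadly present. All 28 measured members lay above background, against 67.8% of all genes, with a median of 9.70. The type II receptor Bmpr2 averaged 12.62 ± 0.18 (SD, n = 3), and Amhr2, the receptor of anti-Mullerian hormone, read 11.86, 12.17 and 11.96. Amh itself, a product of smaller growing follicles, had the lowest mean of the list at 6.12 ± 0.10. Inhbb, the other beta subunit of inhibin, read 9.23, 10.73 and 9.52, with GFP 2 the highest, whereas Inhba varied by 0.26 in all.

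Steroidogenesis genes had a median of 10.90, and all 16 measured members lay above background, against 67.8% of all genes. Fdx1, the ferredoxin that feeds electrons to Cyp11a1, averaged 13.71 ± 0.26 (SD, n = 3). Scarb1, which imports cholesterol esters from high-density lipoprotein, averaged 11.04 ± 0.33, and Hsd17b1, which makes oestradiol from oestrone, 11.21 ± 0.38. Star, which moves cholesterol into mitochondria and is strongly induced by LH, read 7.59, 7.14 and 7.25. Cyp17a1, the androgen-making enzyme of theca cells, had the lowest mean of the list at 5.47, next to the background limit. All 18 measured genes of cholesterol synthesis were above background too. Hmgcs1, which makes the precursor of mevalonate, led them at 12.75.

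Of 19 measured genes of the LH response and cumulus expansion, 10 (52.6%) lay above background, against 67.8% of all genes, and the median was 6.12. Nrip1, a nuclear receptor corepressor needed for ovulation, averaged 10.89, and Timp1, an inhibitor of matrix proteases, 10.17. The lowest means of the list were those of Snap25, a vesicle fusion protein, at 3.94, Tnfaip6, which links hyaluronan in the expanding cumulus, at 4.02, Ereg, an EGF-like factor, at 4.69, and Ptx3, a cumulus matrix protein, at 4.88. In the luteal list all 9 measured members lay above background. Sfrp4, a secreted WNT antagonist, read 13.45, 12.79 and 13.39 and led that list.

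Transcription factors of granulosa identity lay above background for 16 of 18 measured genes, against 67.8% of all genes. Cited2, a coactivator, averaged 13.07 ± 0.16 (SD, n = 3), Foxo1, a factor of growing follicles that FSH restrains, 12.03 ± 0.49, and Nr5a2, which drives steroidogenic genes, 11.46 ± 0.18. Nr0b1, a repressor of steroidogenesis, was the lowest at 4.59 ± 0.15. Fshr, the FSH receptor, read 7.79, 7.65 and 7.71, a range of 0.14.

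The WNT genes are those the study was built around. Among 19 measured WNT ligands, 11 lay above background, against 67.8% of all genes, and the median was 5.51. The count was 8 with a limit at the 99th percentile of the olfactory receptors and 5 with a fixed limit of 6. Wnt5a, a noncanonical ligand, read 9.45, 9.43 and 9.44. Wnt4, the ligand overexpressed elsewhere in the study, read 9.93, 9.16 and 9.13 on one probe set and 9.13, 7.57 and 8.27 on the other, with GFP 1 highest on both. Ctnnb1, which encodes beta-catenin, averaged 13.24 ± 0.28 (SD, n = 3) on one probe set and 9.47 and 7.43 on the others. Of 28 receptors and pathway parts, 25 lay above background, and of 19 beta-catenin targets, 13 (68.4%), a share near that of all genes. The last count was 8 with averaged probe sets and 9 with a fixed limit of 6. Lef1, a DNA-binding partner of beta-catenin, was low at 4.59 ± 0.12, and Axin2, a feedback inhibitor, averaged 7.15 ± 0.33.

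Markers of other cells gave a mixed picture, shown in the plot of list signals. For the Sertoli (66.7%), stroma (71.4%), leukocyte (70.6%) and oocyte (64.7%) lists the share above background was near the 67.8% of all genes, so these counts say nothing particular about those lists. Endothelial genes were low, with 4 of 13 above background and a median of 5.17, although the highest mean was 7.88. Pecam1, Tek, Emcn and Vwf were at the low end of the list, between 4.47 and 4.75. Of 6 erythrocyte genes 2 lay above it (1 with a fixed limit of 6), and of 12 surface epithelial genes 6. Krt8, a keratin of simple epithelia, averaged 10.02, but Krt7, Muc16, Lrrn4 and Cdh1 lay between 4.27 and 4.88. In the Sertoli list 8 of 12 lay above background, Clu among them, while Dmrt1 and Sox8, factors of the testis, stood at 4.78 and 4.67. In the theca list Aldh1a1, a retinoic acid enzyme (13.73 ± 0.08, SD, n = 3), and Ptch1, the hedgehog receptor (10.68 ± 0.16), were high, and Gli1, a hedgehog target, was low at 4.98. In the stroma and smooth muscle list 10 of 14 were above background, led by Acta2, smooth muscle actin (12.16 ± 0.66), while Lum, the matrix proteoglycan lumican, stood at 4.83. Leukocyte genes were above it for 12 of 17, led by Laptm5 (10.78), Ctss (9.18) and Lyz2 (9.01), whereas Itgam and Ptprc, which mark myeloid cells and all leukocytes, averaged 4.53 and 4.76. Oocyte genes were above it for 11 of 17, led by Gdf9, an oocyte growth factor, at 8.99 ± 0.64.

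**Figure D1:**
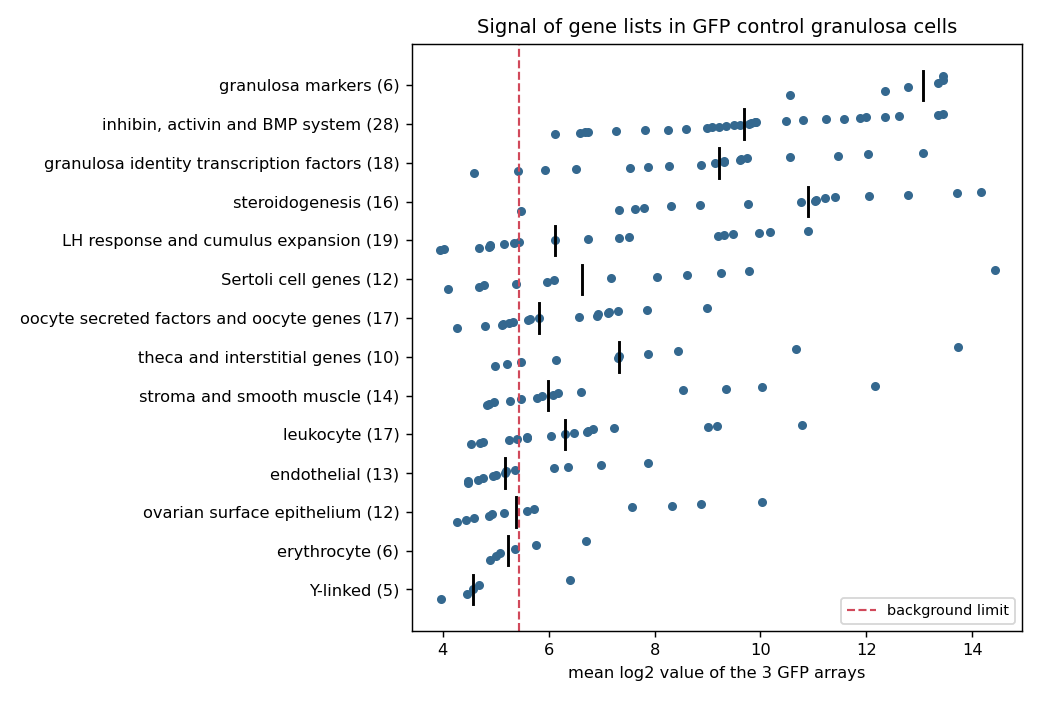
Mean log2 value of the 3 GFP arrays (horizontal axis) for each measured gene of 14 lists (points, with the number of genes in parentheses), the list median (black bar) and the background limit of 5.45 (dashed line). All points of the granulosa markers lie far to the right of the limit, and most endothelial, erythrocyte and Y-linked genes lie to its left.

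All 26 measured genes of the mitochondrial respiratory chain lay above background, with a median of 11.95 and a median SD of 0.12 between arrays. Uqcrb, a subunit of complex III, led them at 14.04. Ribosomal protein genes, chosen by symbol after the values were seen, had a median of 13.36, with 44 of 47 above background. Among matrix proteases Ctsl, a lysosomal cathepsin that also acts at ovulation, averaged 13.72 ± 0.25 (SD, n = 3) and Mmp11, stromelysin 3, 12.24 ± 0.36. Fosl2, a Fos family factor, led the immediate early list at 12.85, and Fosb, another member of the family, was at 4.73. Of 25 interferon genes 17 (68.0%) lay above background, near the 67.8% of all genes, and 11 did with a fixed limit of 6. Their median was 5.88, and Bst2, an antiviral membrane protein, led them at 10.48. Among p53 targets Trp53inp1 and Ccng1 averaged 12.16 and 12.13, and Cdkn1a, the cyclin-dependent kinase inhibitor p21, 12.06.

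The 3 arrays gave similar values for most genes. Across all probe sets, which are not independent replicates, their values correlated at 0.989 to 0.992. Among genes above background the median SD was 0.16 and the median range 0.31, or 1.24-fold from the lowest to the highest array. A range under 0.5 was found for 75.9% of them. The spread was smaller at high signal. The median SD was 0.19 in the lowest quartile of level, 0.20 in the next, 0.15 in the third and 0.13 in the highest. At the other end, 486 genes (3.94%) had a range of at least 1, which is 2-fold, and 28 of at least 2, which is 4-fold. This count was 288 when the probe sets of each gene were averaged. The smallest ranges have no order, since 23 genes had the identical value on all 3 arrays.

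**Figure D2:**
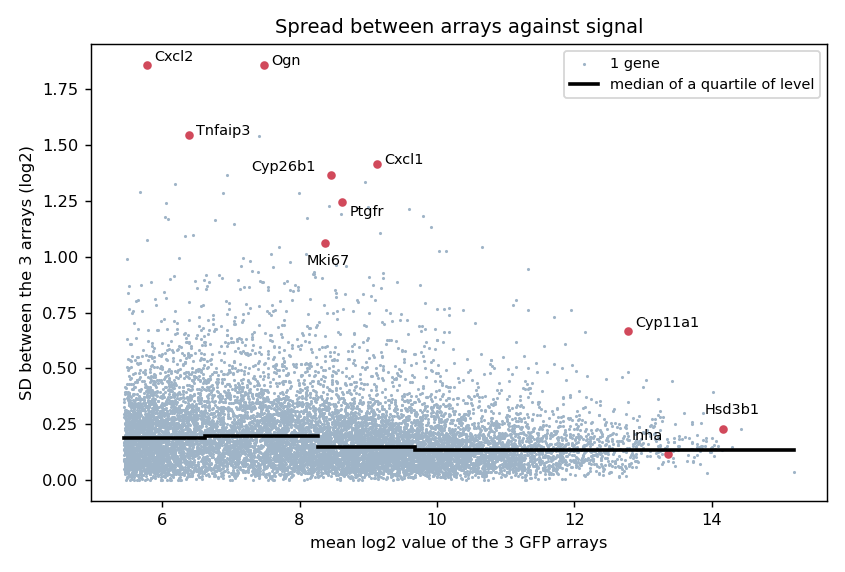
SD between the 3 GFP arrays (vertical axis, log2) against the mean log2 value (horizontal axis) for each of the 12332 genes above background (grey points), with the median SD of each quartile of level (black lines) and a few named genes (red). The medians lie between 0.13 and 0.20, and Ogn and Cxcl2 stand highest.

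GFP 1 was the array that most often stood alone. Among the 486 genes with a range of at least 1, it was the farthest from the other two arrays for 234, 195 of them with GFP 1 low, and GFP 2 was for 176 and GFP 3 for 76. GFP 1 and GFP 2 differed by at least 1 at 305 genes, GFP 1 and GFP 3 at 216, and GFP 2 and GFP 3 at 150. Medians of the arrays were 5.54, 5.53 and 5.48 and upper quartiles 7.68, 7.70 and 7.83. The 3' minus 5' difference of the beta-actin controls was 1.28 on GFP 1, 1.12 on GFP 2 and 1.08 on GFP 3, and that of the Gapdh controls 1.80, 1.80 and 1.77. The part of RNA quality in the spread was not tested. For 171 of the 486 genes a further probe set lay above background, and in 103 of these (60.2%) it had the same highest and the same lowest array, against 28.1% of genes with a range under 0.5.

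Proliferation genes made the clearest of these differences. All 21 measured mitosis genes were lowest on GFP 1, and 20 were highest on GFP 2. Over all genes above background, GFP 1 was lowest for 35.4% and GFP 2 highest for 25.6%. Mki67, the proliferation antigen Ki-67, read 7.19, 9.25 and 8.66 on GFP 1, 2 and 3, a 4.17-fold span. Cdk1, the kinase that starts mitosis, read 8.65, 9.89 and 9.44, and Ccnb2, its cyclin B2 partner, 6.67, 7.98 and 7.27. GFP 1 was the lowest array in each; it stood apart from the others for Mki67 and Cdk1, and for Ccnb2 GFP 2 stood apart on the high side. The list's median deviation from the mean of the arrays was -0.70, 0.61 and 0.12, and 18 of its 21 genes had a range of at least 1, against 3.94% of all genes. Top2a, a topoisomerase of dividing cells, is a caution, since its best probe set followed the pattern (7.29, 8.73 and 8.35) and its second (5.99, 5.70 and 5.34) did not.

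S phase genes were also lowest on GFP 1, for 18 of 18 above background, against 35.4% of all genes. Their median deviations were -0.47, 0.31 and 0.17. Prim1, the primase that starts new DNA strands, read 6.62, 8.29 and 7.73. Rrm2, which supplies deoxynucleotides, read 8.07, 9.67 and 9.48, and Mcm5, part of the replicative helicase, 7.80, 9.30 and 8.78. Mcm7, another part of that helicase, read 11.52, 11.75 and 11.74, a range of only 0.23. The cell cycle inhibitor Cdkn1b (p27) read 10.08, 9.04 and 9.92, with GFP 2 the lowest. Of 13 genes above background in the list of D cyclins and CDK inhibitors, 5 were lowest on GFP 2 and 5 on GFP 1. Over all genes above background, 39.0% were lowest on GFP 2. Median deviations of that list were -0.14, -0.03 and 0.12, and 1 gene had a range of at least 1. In bulk RNA, fewer cells of a kind and less RNA per cell cannot be told apart, here and below.

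Promoters of a mitotic cyclin and kinase and of an S phase gene are shown because these genes were lowest on GFP 1 and their windows hold motifs counted for the lists below. Capitals mark CCAAT and TTTGAA on either strand in Ccnb2 and Cdk1, and GCGGGAA on either strand in Prim1. CCAAT is the NF-Y box, TTTGAA a form of the cell cycle homology region of mitotic genes, and GCGGGAA an E2F-type motif. TTTGAA and GCGGGAA were chosen after the values were seen, and Prim1 was picked because it holds GCGGGAA. The same stretch of Mcm3, Mcm5, Rrm2 and Pcna does not hold it, and that of Cdc6 does. The sequences are the 250 bases before the start in RefSeq (GRCm38.p6): Ccnb2 at chr9:70421555-70421804, minus strand, Cdk1 at chr10:69352913-69353162, minus strand, and Prim1 at chr10:128014965-128015214, plus strand.
Ccnb2: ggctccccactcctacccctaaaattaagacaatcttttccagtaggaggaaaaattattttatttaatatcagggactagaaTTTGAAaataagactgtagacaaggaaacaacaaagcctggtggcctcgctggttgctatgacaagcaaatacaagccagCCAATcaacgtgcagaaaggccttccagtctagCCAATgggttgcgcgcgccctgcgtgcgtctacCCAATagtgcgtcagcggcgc
Cdk1: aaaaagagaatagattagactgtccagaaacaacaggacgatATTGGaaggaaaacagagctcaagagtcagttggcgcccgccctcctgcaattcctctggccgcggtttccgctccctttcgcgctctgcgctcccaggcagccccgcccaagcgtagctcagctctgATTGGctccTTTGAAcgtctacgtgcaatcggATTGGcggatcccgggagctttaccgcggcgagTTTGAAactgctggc
Prim1: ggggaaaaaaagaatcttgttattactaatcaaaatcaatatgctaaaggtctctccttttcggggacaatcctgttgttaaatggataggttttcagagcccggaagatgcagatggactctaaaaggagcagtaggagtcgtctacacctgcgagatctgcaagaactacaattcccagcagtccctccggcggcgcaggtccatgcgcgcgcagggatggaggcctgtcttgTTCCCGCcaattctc
CCAAT was in 16 of 18 promoter windows of mitosis genes (88.9%) and in 12 of 18 of S phase genes, against 37.4% of all windows. TTTGAA was in 13 of 18 (72.2%) and 1 of 18, against 17.9%. GCGGGAA was in 0 of 18 and 10 of 18 (55.6%), against 4.60%. No match says only that these letters are not in the window.

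Oocyte genes set GFP 2 apart. All 11 above background were highest on GFP 2 and 10 of them lowest on GFP 3, and over all 17 measured genes 15 were highest on GFP 2. Over all genes above background, 25.6% were highest on GFP 2 and 25.6% lowest on GFP 3. Zp3, a zona pellucida protein, read 6.81, 8.10 and 6.48, a 3.08-fold span. Zp2, another zona protein, read 7.46, 8.84 and 7.29, and Gdf9 8.80, 9.70 and 8.47. Zp1, which cross-links the zona, read 6.25, 7.20 and 6.24. GFP 1 and GFP 3 lay close together in each triplet and GFP 2 above them. The mean over the 17 genes was 6.11, 6.63 and 5.92 on GFP 1, 2 and 3. Bmp15, the partner of Gdf9, and Ddx4, a germ cell helicase, stayed below the background limit on each array. The part of oocyte RNA in the other differences of GFP 2 was not tested.

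The luteal genes with the largest ranges were lowest on GFP 2, although the list as a whole was lowest there for only 4 of 9 genes and highest on GFP 1 for 7. Ptgfr, the receptor of prostaglandin F2 alpha that ends luteal life, read 9.69, 7.25 and 8.92, a 5.43-fold span, and its next probe set 8.12, 5.87 and 7.31 in the same order. Akr1c18, which inactivates progesterone, read 9.64, 8.04 and 8.89. Oxtr, the oxytocin receptor, which is in no list, read 9.11, 7.26 and 8.24. In each triplet GFP 2 was the lowest array and GFP 1 the highest. Cyp11a1 had that order too, but its next probe set read 6.90, 6.82 and 6.85, a range of under 0.1. Of 16 steroidogenesis genes, 9 were lowest on GFP 2 and 11 highest on GFP 1, with median deviations of 0.16, -0.11 and 0.01. Over all genes above background, 39.0% were lowest on GFP 2 and 32.4% highest on GFP 1. Cholesterol synthesis genes were highest on GFP 1 for 13 of 18 and lowest on GFP 3 for 12. Of all genes above background, 25.6% were lowest on GFP 3.

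Among the genes with the largest ranges, Cxcl2, Cxcl1, Tnfaip3 and Cd83 were highest on GFP 3. Cxcl2, a chemokine that attracts neutrophils, read 4.54, 4.88 and 7.92, so that it was below the background limit on GFP 1 and GFP 2. Cxcl1, a related chemokine, read 8.26, 8.37 and 10.77, with its next probe set at 7.68, 7.94 and 9.32. Tnfaip3, the A20 protein that restrains NF-kappaB, read 5.02, 6.10 and 8.07, and Cd83, a marker of activated immune cells, 5.23, 4.69 and 7.14. In each, GFP 3 had the highest value. Cxcl2 and Cd83 passed the background limit only through GFP 3, and Tnfaip3 was below it on GFP 1, so Cxcl1 alone was above it on every array. Leukocyte markers were also highest there for 9 of 12 above background and 11 of 17 measured, against 42.0% of all genes above background. Ctss, a lysosomal protease of macrophages, read 8.94, 8.46 and 10.14, Lyz2, lysozyme of myeloid cells, 9.14, 8.20 and 9.69, and Csf1r, a macrophage growth factor receptor, 7.01, 6.80 and 7.87. The next probe set of Csf1r read 6.59, 6.99 and 6.83, with GFP 2 the highest. The mean over the 17 leukocyte genes was 6.48, 6.31 and 6.83, and Ptprc read 4.46, 4.34 and 5.49. The part of leukocytes in the chemokine values was not tested.

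Both chemokine promoters hold a form of the NF-kappaB motif, GGGA then any base then TTTCC, chosen after the values were seen. Capitals mark it in the 250 bases before the start in RefSeq (GRCm38.p6): Cxcl1 at chr5:90890995-90891244 and Cxcl2 at chr5:90903649-90903898, both on the plus strand.
Cxcl1: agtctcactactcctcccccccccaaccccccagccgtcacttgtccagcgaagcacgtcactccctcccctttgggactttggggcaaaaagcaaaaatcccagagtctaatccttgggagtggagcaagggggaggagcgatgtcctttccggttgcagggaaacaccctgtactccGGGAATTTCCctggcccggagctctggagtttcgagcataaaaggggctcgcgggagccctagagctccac
Cxcl2: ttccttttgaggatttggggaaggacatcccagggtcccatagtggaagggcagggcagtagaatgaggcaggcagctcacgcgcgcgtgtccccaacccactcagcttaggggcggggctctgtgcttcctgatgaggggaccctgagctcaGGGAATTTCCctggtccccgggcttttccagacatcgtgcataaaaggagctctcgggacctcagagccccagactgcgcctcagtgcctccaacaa
The motif was in 135 of 32851 windows (0.411%), both strands searched, and in 0.471% of those of genes above background. It was in 2 of 65 windows of the genes for which GFP 3 stood apart as the highest array, and those 2 are the promoters shown.

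Genes of the stroma and smooth muscle list were mostly lowest on GFP 1, as were 11 of 19 matrix genes above background. Over all genes above background, 35.4% were lowest on GFP 1. Of the same 19 matrix genes, 13 were highest on GFP 3, against 42.0% of all genes above background. The matrix list had median deviations of -0.20, 0.002 and 0.23, so GFP 3 differed from GFP 2 there too. Tagln, the actin-binding protein transgelin, read 8.84, 10.58 and 10.65, and Acta2 read 11.40, 12.50 and 12.58. Col3a1, a fibrillar collagen, read 8.54, 9.87 and 9.64, and Col1a2, a collagen I chain, 7.72, 8.83 and 9.08. GFP 2 and GFP 3 lay close together in these triplets and GFP 1 below them. Thbs1, the antiangiogenic matrix protein thrombospondin 1, read 11.08, 12.25 and 12.50, and Fn1, fibronectin, 7.70, 9.13 and 9.16. Ogn, the proteoglycan osteoglycin, had the largest range of any gene above background, 3.57, at 5.39, 8.96 and 8.07, and its other probe set read 4.93, 6.79 and 6.10. On GFP 1 both were below the background limit, so the size of that range is uncertain. Dcn, decorin, a defining gene of stroma, did not follow, with 6.57, 6.64 and 6.64, and Lum was below the background limit on every array. In the stroma list 8 of 10 genes above background, and 10 of 14 measured, were lowest on GFP 1. Median deviations of those above background were -0.38, 0.27 and 0.11. The unfolded protein list was lowest on GFP 1 too, for 13 of 17 genes. Hspa5, the chaperone BiP, read 13.00, 13.32 and 13.53, and Chac1, a stress-induced enzyme of glutathione breakdown, 5.37 (below the background limit), 7.57 and 6.40.

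**Figure D3:**
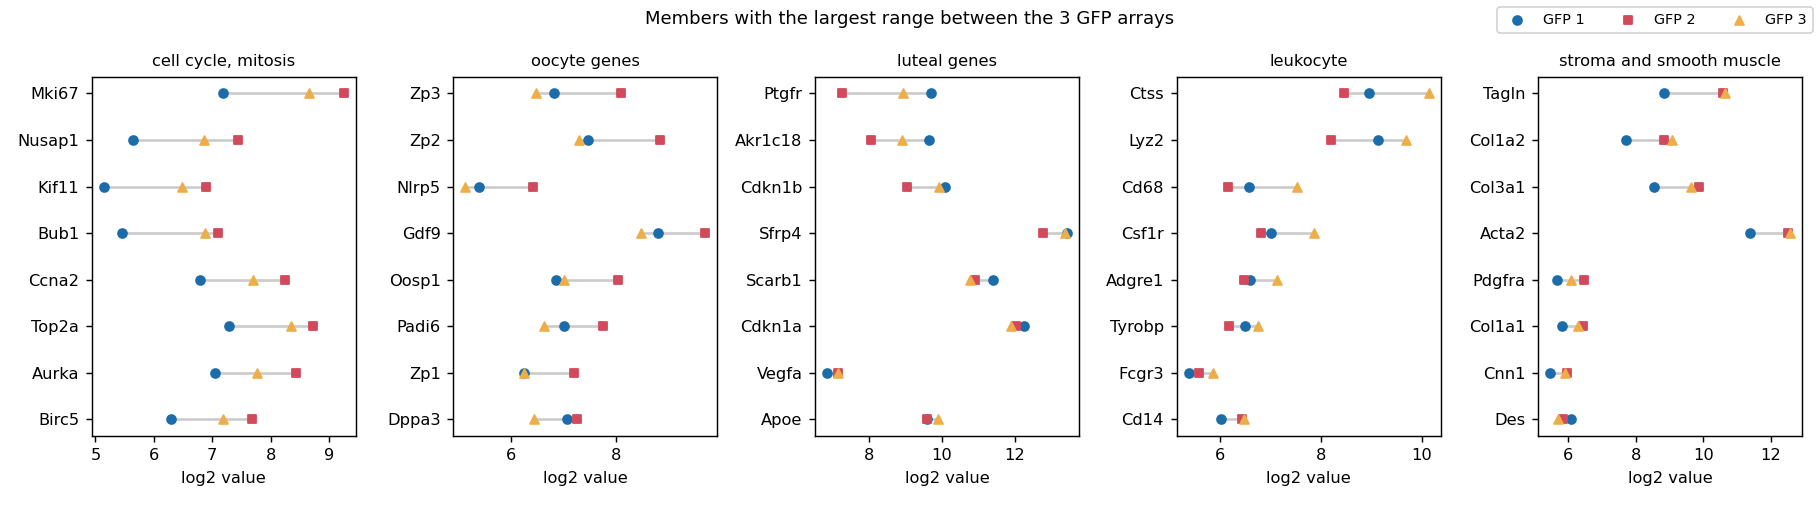
Log2 values (horizontal axis, a scale of its own in each panel) on GFP 1 (blue circles), GFP 2 (red squares) and GFP 3 (yellow triangles) for the 8 members above background with the largest range in each of 5 lists. GFP 1 is lowest for each mitosis gene shown, GFP 2 highest for each oocyte gene, and GFP 3 highest for each leukocyte gene.

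Most other lists varied less. Median deviations spanned 0.5 or more for 4 of 34 lists: mitosis, oocyte, S phase, and stroma and smooth muscle. The span was 0.08 for p53 targets, 0.11 for interferon genes, 0.16 for the inhibin, activin and BMP system and 0.19 for granulosa transcription factors. These spans describe the 3 arrays, and no test was made of them.

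**Figure D4:**
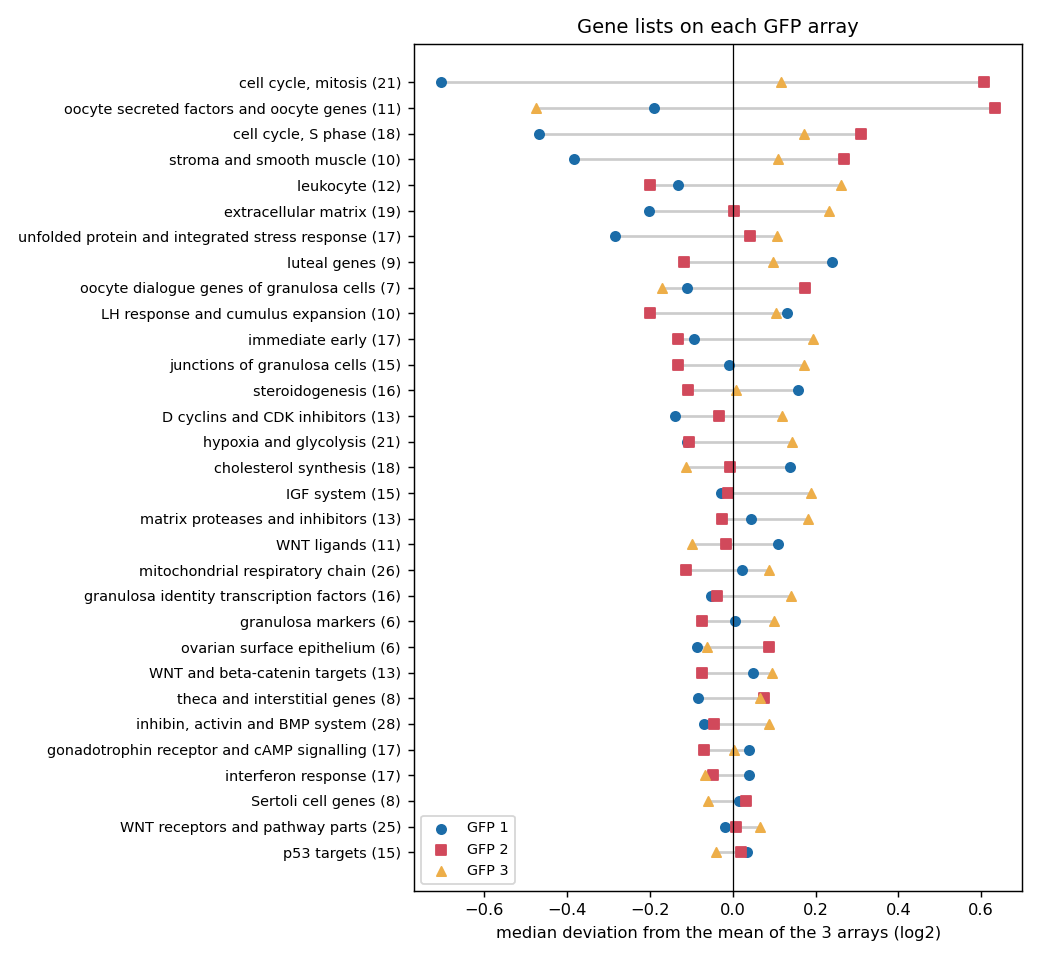
Median deviation from the mean of the 3 arrays (horizontal axis, log2) on GFP 1 (blue circles), GFP 2 (red squares) and GFP 3 (yellow triangles) for each list with at least 5 members above background (number in parentheses), ordered by the span. The mitosis list runs from -0.70 on GFP 1 to 0.61 on GFP 2, and p53 targets lie close to 0 on every array.

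The share of CpG-rich promoters was higher among genes with more signal, but it levelled off over the upper part of the genes above background. CpG-rich windows, those with over 50% G and C and an observed to expected CpG ratio over 0.6, made up 23.9% of windows of genes at or below background, 41.3% in the lowest quartile of genes above it and 74.1% in the highest. With averaged probe sets the lowest and highest quartiles had 49.4% and 73.1%. By decile of the genes above background, the share reached 72.4% in decile 6 and lay between 71.3% and 75.4% in the deciles above it. Among the 100 genes with the highest signal it was 68.2%. The CpG-rich share was 51.6% over all genes on the array and 63.3% over those above background. TATAAA on either strand was in 14.9% of windows of genes at or below background and in 10.3%, 6.30%, 7.32% and 6.65% from the lowest to the highest quartile above it, with no trend over the upper ones. Among the 100 genes with the highest signal the share was 13.6%. On the gene's own strand 20 to 40 bases before the start, the shares were 3.99% for genes at or below background and 0.980% for the highest quartile. Among genes with a range of at least 1, 48.0% of windows were CpG-rich, against 63.9% for genes with a smaller range. CCAAT hardly differed, at 37.8% below background and 37.4% in the highest quartile. RefSeq windows were found for 9961 of the 12332 genes, and several windows can belong to 1 gene.

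**Figure D5:**
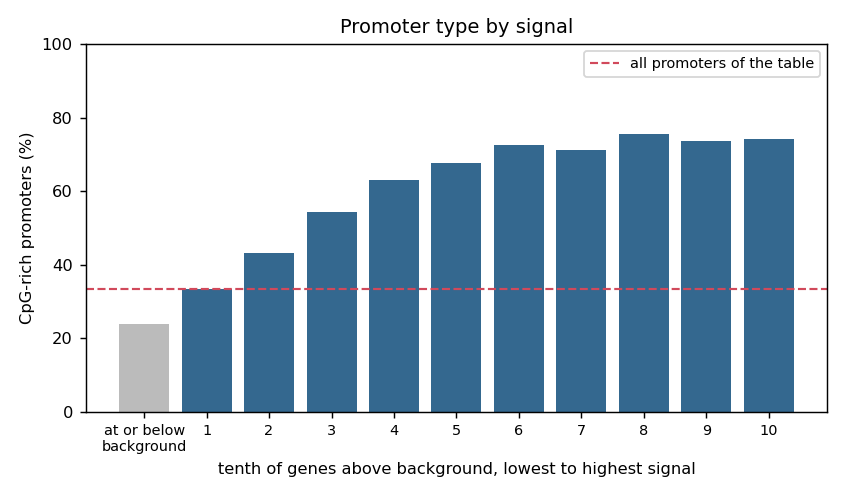
Share of CpG-rich promoter windows (vertical axis, percent) for genes at or below background (grey) and for each decile of the genes above background, from lowest to highest signal (blue bars), with the share over all windows (dashed line, 33.3%). The share is 33.4% in the lowest decile and 74.1% in the highest, and 51.6% over windows of all genes on the array.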

How the data were processed

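The authors deposited log2 signals, which RMA produced per the submitters' processing notes (release not given in the sources used here). RMA equalises probe signals between arrays before it summarises them, so differences between arrays were already reduced. No detection calls or scans were used here. Of 45101 probe sets, 64 controls were left out. Of the remaining 45037, the platform annotation gave 1 symbol for 34945, several for 932, which stayed without a name, and none here for 9160. Current RefSeq symbols (GRCm38.p6), matched on Entrez ID, replaced those of 34741, giving 18193 genes.

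Means, SDs, ranges and percentiles were computed over the 3 GFP arrays in Python 3.11.15 with pandas 2.3.3, and the functions were tested on simulated data. Where a gene had several probe sets, the brightest on average stood for it. The design of 1 group allows no comparison, so no p-value is given. Members and lists were chosen with earlier results of these data known. Named genes are the 6 markers, Wnt4, Ctnnb1, the 25 highest signals, the 25 largest ranges, and the highest, lowest and most variable members of each list. Those outside the rule, such as Xist, Ccnb2, Zp1, Oxtr and the second probe sets, were chosen after their values were seen. Some list genes are not analysed here. The number of arrays limits the precision.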

Additional observations from a re-analysis of the deposited data

How the results depend on the processing

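The number of genes above background stayed between 10600 and 12379 under every alternative tried: the 99th percentile of the olfactory receptors, a fixed limit of 6, all arrays above the limit, averaged probe sets, quantile normalization, median centring and leaving out each array. Genes with a range of at least 1 numbered 288 with averaged probe sets and 155 without GFP 1, 213 without GFP 2 and 301 without GFP 3, where a range over fewer arrays is smaller by construction. They numbered 450, 501 and 522 with quantile normalization, median centring and no filter. The median SD was 0.137 with averaged probe sets, 0.156 after quantile normalization, 0.171 after median centring, 0.151 without the filter and 0.129 to 0.135 without an array. The median percentile of the 6 granulosa markers was 92.5 with averaged probe sets and 99.4 to 99.6 without an array. Of 102 list deviations, 15 changed sign with averaged probe sets, 20 after quantile normalization and 4 after median centring, but 0 of the 17 of at least 0.2 in size did in any of these. With averaged probe sets no Y-linked gene was left above background, so that list has no deviation there. Signal near the limit of 5.45 bounds what can be read: 1587 genes lay within 0.5 above it. No paired analysis was possible because the values come from 1 group and from no test.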
